A study of Mus musculus with 179 samples.

Results

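The NRF2 and glutathione genes described here are 35 of the 32100 genes counted in single cells of mouse pancreatic acinar organoids. They were taken by name from a list that was drawn up with earlier results of these data known, and all 35 were found. Each had at least 10 counts per 1000000 (CPM) over all cells. They comprise the regulators Nfe2l2, Keap1 and Sqstm1, 8 NRF2 target genes, Gss and Txn1, 8 glutathione transferases, 3 glutathione peroxidases, 5 peroxiredoxins, 3 pentose phosphate enzymes, and 2 superoxide dismutases with catalase.

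NRF2, the product of Nfe2l2, is a transcription factor that KEAP1 marks for breakdown in resting cells. When reactive chemicals modify KEAP1, or when the autophagy adaptor SQSTM1 binds it, NRF2 accumulates and raises genes of glutathione synthesis, conjugation and NADPH supply. Glutathione transferases join glutathione to electrophiles, while glutathione peroxidases and peroxiredoxins reduce peroxides with electrons from glutathione or thioredoxin. Acinar cells of the pancreas carry a heavy load of protein folding, and the loss of their enzyme programme in culture is well known.

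All cells form 1 group. All came from wild-type C57BL6 mice, as primary acinar cells grown in Matrigel for 9 days as organoids, with no treatment and no comparison group in the labels. RNA was measured with Smart-seq3, which counts molecules by unique molecular identifiers (UMIs). The labels name no animal and no culture for a cell, so a cell is not a replicate. The values are descriptions, no test was run, and intervals are exact 95% intervals for counting error alone.

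Cells held 3258 to 329522 UMIs, with a median of 165267. Their acinar label was checked against markers. A list of 16 acinar enzyme genes held a median of 131.8 CPM per cell, and only 4 cells exceeded 10000 CPM, the highest (Acinar52) with 271434. A list of 10 duct epithelial genes held a median of 16031 CPM. The data thus go against the acinar label for most cells, which are called epithelial here. In 6 cells a list of 10 fibroblast genes held 6275 to 12382 CPM, against at most 317 in all other cells. One of these 6 fibroblast-rich cells, Acinar188, also held 7683 CPM of the duct genes, against 581 to 1061 in the others. Summed levels of endothelial and immune markers reached at most 484 and 259 CPM in any cell, and those of endocrine markers had a median of 40.1 CPM and a highest value of 9227. The 24 cells with titles 97 to 120 were shallower (median 43006.5 UMIs). Variation and co-variation were therefore measured in the epithelial cells with at least 40000 UMIs, which left out 18 shallower ones.

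The sequences around the start sites were searched for the letters that NRF2 is known to bind. The antioxidant response element was searched as TGACNNNGC and the related AP-1 site as TGACTCA, on both strands, in windows of 250 bases before to 50 after each RefSeq start (GRCm38.p6). A TGACTCA that is followed by GC matches both. Windows were listed for 30 members. The first motif was in 10 of them (33.3%), against 13.99% of 27025 genes, and the second in 4 (13.3%), against 5.95%. By window, 10 of 38 (26.3%) held the first motif, against 12.4% of 32851 windows, and 4 of 38 (10.5%) held the second, against 5.20%. The first was in Gclm, Srxn1 and Txnrd1 of 5 NRF2 targets, in Gstm5 and Mgst1 of 7 glutathione transferases, and in Prdx1 of 4 peroxiredoxins. It was also in Nfe2l2, G6pdx, Pgd and Sod1. In Srxn1 and Pgd the match began 28 and 3 bases after the start, and in the others before it. Printed here are stretches outside annotated exons that hold a match (capitals) in a glutathione synthesis gene, a thioredoxin reductase, a peroxiredoxin and a dismutase, and, for contrast, that of Gsto1, in which neither motif was found.
Gclm (chr3:122245307-122245556, plus strand): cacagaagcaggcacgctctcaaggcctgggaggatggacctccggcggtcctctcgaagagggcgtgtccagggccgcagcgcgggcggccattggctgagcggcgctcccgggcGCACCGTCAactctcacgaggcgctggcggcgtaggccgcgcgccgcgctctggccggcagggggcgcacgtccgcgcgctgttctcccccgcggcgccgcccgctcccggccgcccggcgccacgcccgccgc
Txnrd1 (chr10:82859009-82859178, plus strand): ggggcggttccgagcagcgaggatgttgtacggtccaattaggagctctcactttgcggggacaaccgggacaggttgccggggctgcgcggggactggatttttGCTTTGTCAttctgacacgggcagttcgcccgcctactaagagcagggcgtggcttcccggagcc
Prdx1 (chr4:116685349-116685543, plus strand): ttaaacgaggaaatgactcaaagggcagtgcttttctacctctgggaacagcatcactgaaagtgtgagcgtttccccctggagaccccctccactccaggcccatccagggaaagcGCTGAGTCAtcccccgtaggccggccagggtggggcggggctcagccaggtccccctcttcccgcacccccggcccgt
Sod1 (chr16:90220512-90220753, plus strand): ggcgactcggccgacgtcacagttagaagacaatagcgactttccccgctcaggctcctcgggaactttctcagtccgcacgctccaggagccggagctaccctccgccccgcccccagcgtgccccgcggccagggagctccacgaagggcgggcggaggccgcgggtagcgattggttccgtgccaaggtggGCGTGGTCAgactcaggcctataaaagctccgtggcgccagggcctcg
Gsto1 (chr19:47854723-47854969, plus strand): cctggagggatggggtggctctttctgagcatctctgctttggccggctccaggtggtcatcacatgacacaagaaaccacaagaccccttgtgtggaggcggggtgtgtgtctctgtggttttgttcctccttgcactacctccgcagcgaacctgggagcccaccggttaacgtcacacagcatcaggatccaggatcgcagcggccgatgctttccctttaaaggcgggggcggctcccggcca
In Prdx1 the capitals also contain the AP-1 letters on the opposite strand, and a separate AP-1 match on the printed strand begins 237 bases before its start. Gstp1 held no match to the first motif and an AP-1 match, TGAGTCA, that began 74 bases before its start. A match is a description of letters and no evidence of binding, and sites outside the windows were not searched.

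Txn1 and Gsta4 led the list, and the NRF2 targets Nqo1 and Slc7a11 were at its end. Compared in RPKM, reads scaled to exon length and depth, the order began with Txn1 (1331 RPKM), Gsta4 (1206), Gpx1 (694), Gstp1 (664), Gsto1 (444) and Prdx1 (383). It ended with Cat (10.1), Nqo1 (8.59) and Slc7a11 (3.06), while the NRF2 targets Gclc and Txnrd1 were 17th and 22nd. Slc7a11, with 13.9 kb of exons, was 30th by UMIs. By UMIs, which are not scaled to length, 12861 CPM (12819 to 12904) fell on the 35 genes together, with 3826 to 29671 in single cells and a median of 12657. A UMI of 10 members was found in every cell. The plot of all cells shows these levels by role.

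**Figure D1:**
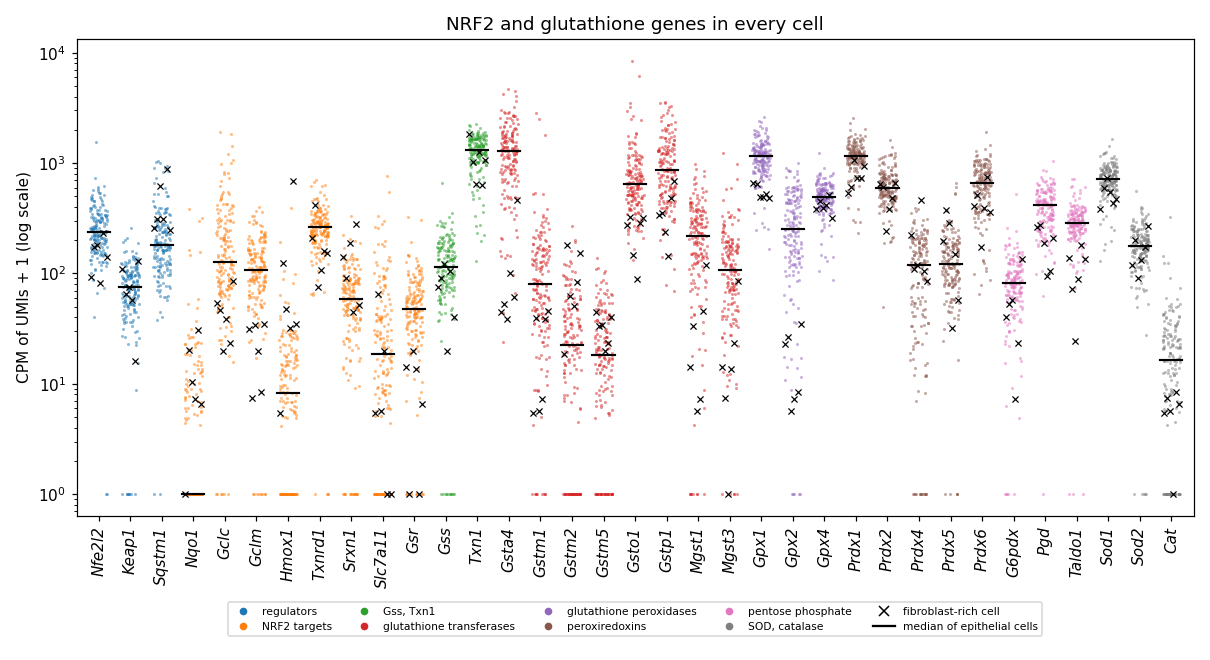
CPM of UMIs plus 1 (log scale) of each of the 35 genes, coloured by role, in epithelial cells (points) and 6 fibroblast-rich cells (crosses), with bars at the epithelial medians. Txn1, Gsta4, Prdx1 and Gpx1 have medians above 1000 CPM, and Nqo1 has a median of 0.

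Among the regulators, Nfe2l2 stood at 256 CPM (250 to 262), with 0 to 1559 in single cells and a median of 234. The 1559 was in a cell of 7699 UMIs. Epithelial cells with at least 40000 UMIs held 39.3 to 735 CPM of Nfe2l2. Sqstm1 stood at 239 CPM, with a median of 183.1 and a highest value of 1050. Keap1 was at 79.9 CPM, with a median of 74.9 and a highest value of 256 (198 in epithelial cells with at least 40000 UMIs).

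The 8 NRF2 targets together held 823 CPM (813 to 834), with 123.6 to 4052 in single cells and a median of 697. Txnrd1, thioredoxin reductase, and Gclc, the catalytic subunit of the first enzyme of glutathione synthesis, held 61.1% of these UMIs. Txnrd1 was at 270 CPM, with a median of 257 and a highest value of 706. Gclc was at 233 CPM with a lower median of 122.4, and its highest value was 1901 in Acinar83, which held 4.96% of its UMIs. Gclm, the modifier subunit of the same enzyme, was at 125.5 CPM with a highest value of 402. In epithelial cells with at least 40000 UMIs the highest value of Gclm was 367. Srxn1, which repairs overoxidised peroxiredoxins, was at 70.8 CPM, and Gsr, which regenerates glutathione, at 50.2 CPM. The cystine transporter Slc7a11 was at 42.3 CPM, with a median of 16.9 and a highest value of 757 in Acinar175.

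Hmox1 (haem oxygenase) and Nqo1 (a quinone reductase), the genes most often used as readouts of NRF2, were the lowest members by UMIs beside Cat. Hmox1 was at 19.2 CPM, with a median of 7.48 and a highest value of 680 in the fibroblast-rich cell Acinar182. Nqo1 was at 12.1 CPM (10.9 to 13.5), with a median of 0, and 22.6% of its UMIs lay in 1 cell, Acinar55 (381 CPM). With each epithelial cell thinned to 40000 UMIs, Nqo1 was found in 34 cells (21.9%, 15.7 to 29.3). Without thinning it was found in 80 cells of any kind (44.7%). Thinned in the same way, 16 members were found in every one of these cells.

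Gss, the second enzyme of glutathione synthesis, was at 129.4 CPM, with a highest value of 663. In epithelial cells with at least 40000 UMIs the highest value of Gss was 352. Txn1, thioredoxin, was at 1281 CPM (1268 to 1295), with 130 to 2238 in single cells and a median of 1319.

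The 8 glutathione transferases together held 3660 CPM (3638 to 3683), with 426 to 14338 in single cells and a median of 3392. Gsta4, which acts on lipid peroxidation products such as hydroxynonenal, was at 1270 CPM, with 22.7 to 4655 in single cells and a median of 1248. Gstp1 was at 1034 CPM, with 68.3 to 3545 and a median of 849. These 2 genes held 62.9% of the UMIs of the group. Gsto1, an omega class enzyme, was at 796 CPM with a median of 626, and its highest value, 8485 in Acinar22, held 8.54% of its UMIs.

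The membrane enzymes Mgst1 and Mgst3 were at 229.9 and 128.3 CPM. Gstm1, of the mu class, was at 140 CPM with a median of 76.1. Its highest value was 2855 CPM in Acinar165, and 12.9% of its UMIs lay in Acinar55 (2509 CPM). Its relatives Gstm2 and Gstm5 were lower, at 36.2 and 25.9 CPM. The 3 mu class members lie close together (Gstm5 at chr3:107895821-107898686, Gstm2 at chr3:107981702-107986453 and Gstm1 at chr3:108012255-108017973, GRCm38). Gsta4 (chr9:78182774-78209349) lies next to Gsta1, Gm3776 and Gsta2 (chr9:78331018-78355788), with Gclc on the same chromosome (chr9:77754535-77794485).

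Close relatives can share reads. Of the stretches of 50 bases in Gstp1 transcripts, 33.7% also occur in Gstp2, and 18.9% of those of Gstm1 and 34.74% of those of Gpx4 occur in other genes. Values of these genes may include molecules of their relatives. Gsta4 shared no such stretch.

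The 5 peroxiredoxins held 2731 CPM (2711 to 2750), with 477 to 4073 in single cells and a median of 2751. Prdx1 was at 1171 CPM, with 232 to 2563 in single cells. Prdx6, which uses glutathione, was at 670 and the cytosolic Prdx2 at 626 CPM. Prdx5 and the endoplasmic reticulum enzyme Prdx4 were at 141.7 and 121.3 CPM. Of the glutathione peroxidases, Gpx1 was at 1151 CPM, Gpx4, which reduces lipid peroxides, at 498, and the epithelial Gpx2 at 295.

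Of the enzymes of the pentose phosphate pathway, which supplies NADPH, Pgd was at 417 CPM, Taldo1 at 297 and G6pdx, the entry enzyme, at 84.9. Sod1 was at 717 CPM and the mitochondrial Sod2 at 182.9, while Cat was at 19.3.

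Other genes of the pathway, 70 in number, were read beside the members. The 10 most abundant were the ferritin genes Ftl1 (1515 CPM) and Fth1 (688), Tkt (863), the transferases Gsta1 (822) and Gsta3 (474), Esd (402), Me1 (341), Akr1b8 (333), Rbx1 (276) and Idh1 (257). Each of the 70 had at least 1 UMI. Gsta1 shares 90.5% of its stretches of 50 bases with other genes, mostly with Gm3776 (75.7%), so its level is uncertain.

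The sums of the transferases and of the NRF2 targets varied between epithelial cells far more than that of the peroxiredoxins did. The spread beyond counting noise, as an SD in percent of the mean, was 57.03% for the sum of the transferases, 46.8% for the NRF2 targets and 17.4% for the peroxiredoxins. Between the quartiles of these cells, the transferase sum went from 2396 to 4970 CPM and the peroxiredoxin sum from 2516 to 3170. The widest spreads of single genes were those of Nqo1 (312%), Gstm1 (207%), Hmox1 (182.8%), Slc7a11 (151.7%), Gsto1 (113.1%), Gclc (108.3%) and Gstm2 (103.8%). Single extreme cells weigh on these values. Over all cells, 22.6% of the UMIs of Nqo1, 12.9% of Gstm1 and 8.54% of Gsto1 lay in 1 cell. Hmox1 reached 390 CPM in these cells, with an upper quartile of 18.7. Spreads of single genes were not recomputed without such cells. Among the 100 genes nearest in mean, Gstm1 lay at the 99th percentile of spread, Nqo1 and Slc7a11 at the 97th, Gclc at the 95th and Mgst3 at the 93rd. Gpx2 (68.3%, 92nd percentile) and Sqstm1 (76.6%, 90th) also lay high. The narrowest were Gpx4 (20.8%, 11th percentile), Prdx1 (22.8%, 47th percentile) and Taldo1 (24.7%, 26th percentile). Among the peroxiredoxins, Prdx4 (63.4%) and Prdx5 (58.7%) varied more than Prdx6 (37.4%), Prdx2 (31.3%) and Prdx1. Genes of one role thus ranged widely, and Txnrd1 (29.7%) also varied little beside the other NRF2 targets.

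**Figure D2:**
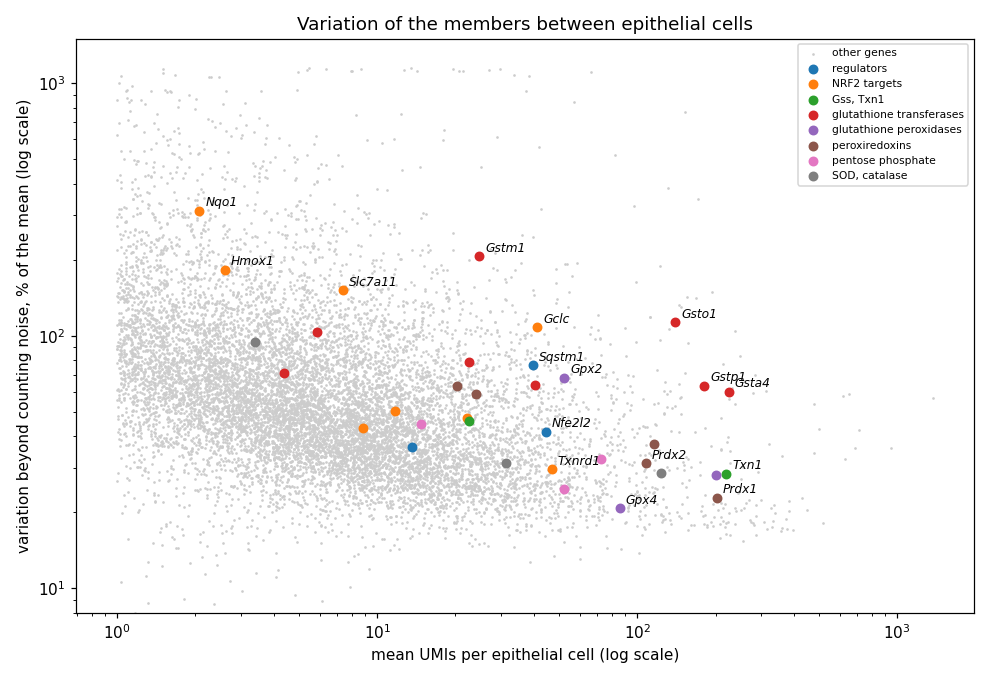
Variation beyond counting noise (SD in percent of the mean, log scale) against mean UMIs per cell (log scale) for the 35 members (coloured by role) and all other genes (grey) in epithelial cells with at least 40000 UMIs. Gstm1, Gsto1 and Gclc stand above most genes of like abundance, while Gpx4 lies low and Prdx1 lies near the middle of its neighbours.

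Cells with more transferase RNA also held more NRF2 target RNA. Spearman's rho between the sums over these cells was 0.51, and 0.43 between transferases and peroxiredoxins. Between NRF2 targets and peroxiredoxins it was 0.15. These are descriptions over cells that share their source and libraries. Over the 11725 genes that averaged 1 UMI or more, the median rho with the 3 sums was -0.08, -0.02 and -0.01.

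The abundant genes carried much of this. Without the 2 most abundant genes of each sum, the first rho was 0.25, and the signs of the other 2 turned (-0.023 for transferases with peroxiredoxins, -0.11 for NRF2 targets with peroxiredoxins). The transferase sum also moved with measures of the libraries. Its rho was -0.35 with the number of genes per cell, 0.29 with the share of ribosomal protein genes, and -0.12 with depth. Their part in the result was not tested. Among cells with titles up to 96 (77 cells) rho between transferases and NRF2 targets was 0.39, and among the other 78 it was 0.59.

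**Figure D3:**
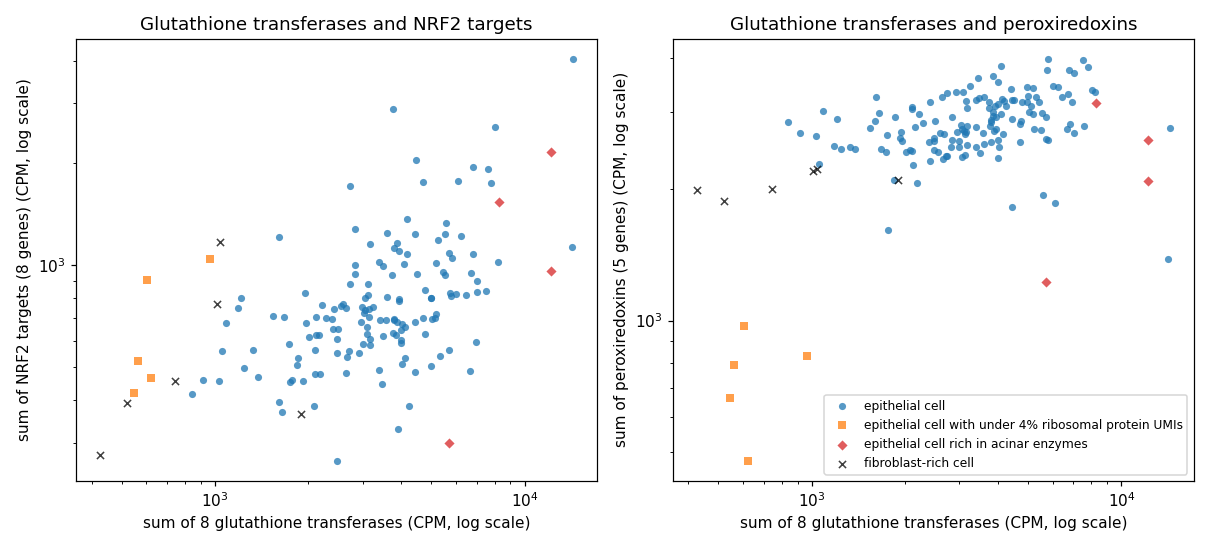
Sums of the NRF2 targets (left) and of the peroxiredoxins (right) against the sum of the glutathione transferases, in CPM on log axes, in epithelial cells with at least 40000 UMIs and in the 6 fibroblast-rich cells. Transferase sums span 547 to 14338 CPM in epithelial cells, and 5 cells with little ribosomal protein RNA (squares) are among the lowest in transferases and lie below all other epithelial cells in peroxiredoxins.

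Of the 35 members, 17 had a rho of at least 0.3 with the transferase sum, where 4.66% of all genes did. For the NRF2 target sum 12 members did, against 1.07% of all genes, and for the peroxiredoxin sum 9, against 3.15%. A gene was left out of its own sum. Outside the transferases, 11 of 27 members passed that level, led by Pgd (0.59), Gss (0.58), Sod1 (0.54), Nqo1 (0.52) and Prdx1 (0.48). Prdx2 had the lowest rho with the transferases, -0.25, and its Pearson correlation on a log scale was 0.03, so its direction depends on the measure. With the NRF2 target sum the highest were Gsta4 (0.50), Pgd (0.47) and Gstp1 (0.43).

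The regulators differed. Nfe2l2 had a rho of 0.31 with the NRF2 target sum, and 0.35 with Gclc alone, while Keap1 had 0.00. Sqstm1 had 0.16.

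NRF2 targets followed each other less closely than the transferases did. The median rho over the 28 pairs of transferases was 0.31, with 15 pairs at 0.3 or above, and over the 28 pairs of NRF2 targets it was 0.16, with 1 such pair (Gclc and Gsr, 0.37). The counts of the rarer targets are low, which limits rho. Over all 595 member pairs the median was 0.12 and 18.7% reached 0.3, against a median of 0.02 and 2.37% over all gene pairs.

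**Figure D4:**
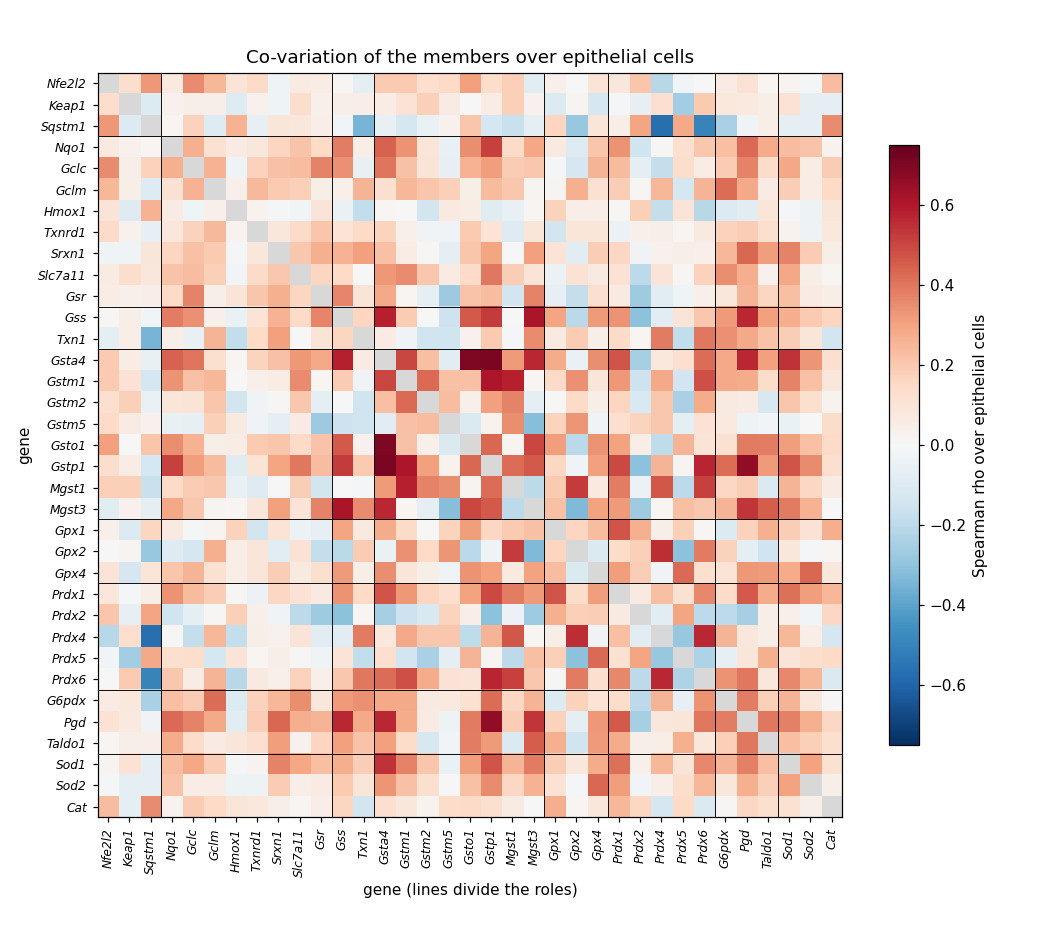
Spearman's rho between each pair of the 35 genes over epithelial cells (red positive, blue negative), with lines between the roles. The strongest squares join Gsta4 with Gstp1 (0.70) and Gsto1 (0.70), and the deepest blue ones join Sqstm1 with Prdx4 (-0.56) and Prdx6 (-0.50).

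The highest pairs were Gsta4 with Gstp1 (0.70), Gsta4 with Gsto1 (0.70) and Gstp1 with Pgd (0.66). Under the other settings tried, these stayed between 0.68 and 0.73, 0.66 and 0.70, and 0.61 and 0.70. The lowest were Sqstm1 with Prdx4 (-0.56), with Prdx6 (-0.50) and with Txn1 (-0.35). These ranged more widely under the same settings, from -0.68 to -0.37, -0.52 to -0.41 and -0.39 to -0.24. The weakest value of Sqstm1 with Prdx4 was that in cells with titles up to 96, and that of Sqstm1 with Txn1 came after thinning. These 4 genes also moved with a list of 12 genes of the G2 and M phases. That rho was -0.59 for Sqstm1, 0.50 for Prdx4, 0.45 for Txn1 and 0.38 for Prdx6. Its part in these pairs was not tested.

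Not all transferases moved together. Chosen after the values were seen, Mgst1 had a rho of 0.58 with Gstm1, 0.52 with Gpx2 and 0.51 with Prdx6, but 0.02 with Gsto1 and -0.19 with Mgst3. Gpx2 had 0.55 with Prdx4 and -0.33 with Mgst3. Gstp1 and Gstm1 (0.61) had a rho above 0.4 with Mgst1 and near 0.5 or more with Gsta4.

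Of the 60 other pathway genes that averaged 1 UMI or more, 21 had a rho of at least 0.3 with the transferase sum. They include 8 of 11 other transferases and 10 of 15 other NRF2 targets, but 1 of 14 other peroxidases and thioredoxin genes and none of 10 other regulators. Gsta1 had 0.80 and Tkt 0.60. For the NRF2 target sum 14 of the 60 passed, and for the peroxiredoxin sum 10.

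Outside all lists, the genes most like the transferase sum were Gm3776 (0.81), a gene model beside Gsta1 that shares 92.5% of its 50-base stretches with other genes, Degs2 (0.79), Gjb1 (0.74), Ugt2b34 (0.73) and Sptssb (0.72). The nearest to the NRF2 targets were Gm3776 (0.53), Aldh1a1 (0.48), Slc44a4 (0.47), Akr1c19 (0.45) and Ftl1-ps1 (0.44). The nearest to the peroxiredoxins were Fcgbp (0.60), Cox7b (0.58), Uqcrh (0.53), Tmbim6 (0.52) and Cox8a (0.52).

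The 6 fibroblast-rich cells held less of most members. The transferase sum was 426 to 1901 CPM in them, with a median of 879, against 547 to 14338 and a median of 3481 in epithelial cells. The highest of the 6, 1901, was in Acinar188, which also carries duct genes. Without it the other 5 lay between 426 and 1039. Pooled, the sum was 4.09-fold lower (3.84 to 4.36). The NRF2 target sum was 1.56-fold lower (1.43 to 1.69) and the peroxiredoxin sum 1.35-fold lower (1.29 to 1.4), with all 6 cells between 1880 and 2221 CPM.

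By gene, 15 of 35 members were at least 2-fold lower in these cells and 2 at least 2-fold higher. Over 10404 genes with at least 10 CPM, 19.6% were as much lower and 9.62% as much higher. The median log2 fold was -0.74 over the members and -0.20 over those genes. Of the transferases 6 of 8 were lower and 1 higher, of the NRF2 targets 4 of 8 and 1, and of the peroxiredoxins none was beyond 2-fold.

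Gpx2 was 18.2-fold lower (11.5 to 30.6), with 4.69 to 33.6 CPM in the 6 cells and an epithelial median of 253. Gsta4 was 10.7-fold lower (8.98 to 12.7). Its values were 43.8, 51.6, 37.5, 100, 59.8 and, in Acinar188, 460 CPM, so 5 of 6 cells lay at or below 100 where the epithelial median was 1277. Without Acinar188 its ratio to epithelial cells was 0.043 in place of 0.094, and by medians of the cells its log2 fold was -4.52 in place of -3.41.

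Gstm1 was 7.01-fold lower, Mgst1 6.86-fold, Mgst3 5.90-fold, Gsr 5.54-fold, Gclm 5.53-fold and Gclc 5.46-fold. Of the UMIs of Mgst1 and Mgst3 in these cells, 56.8% and 62.5% lay in Acinar188, and without it their ratios were 0.076 and 0.076 in place of 0.15 and 0.17. The fold of Gstm1 rests on 22 UMIs and that of Gsr on 10. On the log2 scale Gstm1 was at -2.81, but at -1.85 by medians of the cells and -3.48 in read counts, and Gclc was at -2.45 but at -1.61 by medians. Slc7a11 was 3.09-fold lower, with 66.7% of its UMIs in Acinar6, without which the ratio fell from 0.32 to 0.13. Cat was 4.25-fold lower on 5 UMIs.

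Hmox1 and Gstm2 went the other way. Hmox1 was 8.21-fold higher (6.69 to 10.01), but its values were 4.38, 122.6, 46.9, 31.3, 680 and 33.6 CPM, and 68.9% of the UMIs lay in Acinar182. Without that cell it was 2.91-fold higher. Gstm2 was 2.49-fold higher (1.98 to 3.09), with 17.5 to 180.7 CPM and 5 of 6 cells above the epithelial median of 21.6. Srxn1 (1.90-fold) and Sqstm1 (1.81-fold) were higher by less than 2-fold, and all 6 cells lay above the epithelial median for Sqstm1. Nfe2l2 was 1.80-fold lower and Keap1 had a ratio of 0.995 (0.79 to 1.24).

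Of the 56 other pathway genes tested, 23 were at least 2-fold lower and 6 higher, with a median log2 fold of -0.47. Gsta1 was among the lower ones (ratio 0.087). Fibroblast-rich cells held 133748 to 228062 UMIs with a median of 169027, within the wider epithelial range of 3258 to 329522 with a median of 165267.

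**Figure D5:**
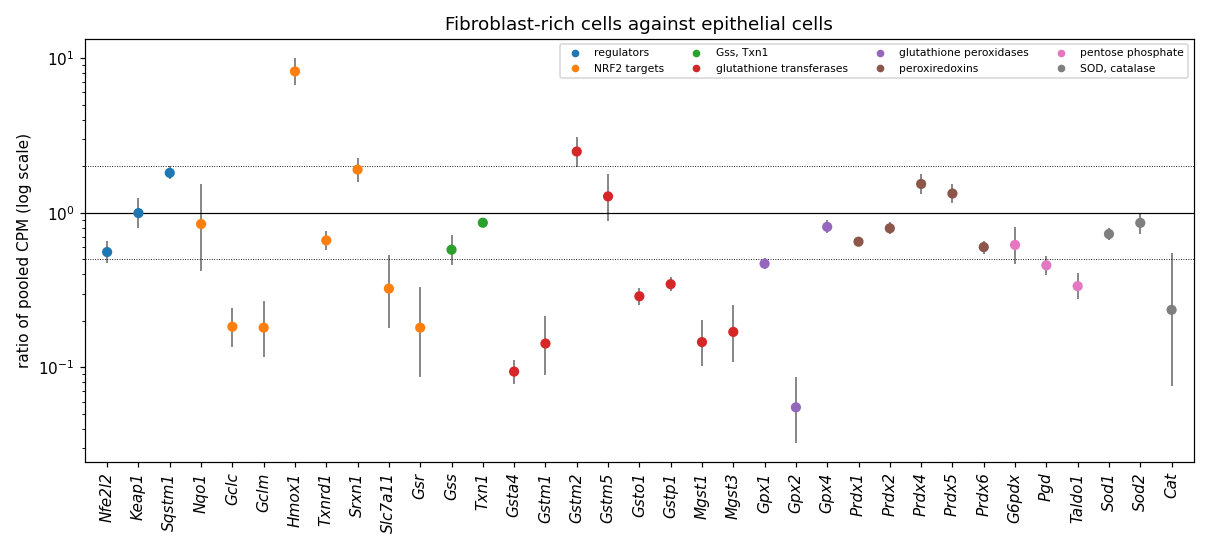
Ratio of pooled CPM in the 6 fibroblast-rich cells to that in epithelial cells for each gene (log scale, coloured by role), with exact 95% intervals for counting error and dotted lines at 2-fold. Gpx2 and Gsta4 lie lowest and Hmox1 highest, and the 5 peroxiredoxins lie within 2-fold.

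The 4 cells with at least 10000 CPM of acinar enzyme RNA all had transferase sums above the epithelial upper quartile of 4970 CPM. Over the epithelial cells with at least 40000 UMIs, however, rho between the transferase sum and the enzyme list was only 0.07. The 4 cells differed in the NRF2 targets and in single genes. In Acinar52, where enzyme genes held 271434 CPM, the transferase sum was 5699 CPM (5356 to 6059), above the epithelial median, while the NRF2 targets held 300 CPM and the peroxiredoxins 1229. Gstm1 (1796 CPM), Gstm2 (267) and Gstp1 (2397) were high there, at the 98th, 99th and 94th percentile of epithelial cells, and Gsta4 (806), Gsto1 (367) and Mgst1 (16.7) were low. Enzyme genes hold much of this cell's RNA, which leaves a smaller share to every other gene. The part of this in the values above was not tested. In Acinar55, Acinar98 and Acinar155 the transferase sums were 12145, 12179 and 8291 CPM and the NRF2 target sums 2163, 963 and 1540, all above the epithelial medians of 3481 and 699. Without the 4 cells the transferases held 3546 CPM over all cells, and their rho with the NRF2 targets was 0.50.

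Acinar165, an epithelial cell with 1685 CPM of enzyme genes, held the highest value of 5 members and the highest sums of transferases (14338 CPM) and NRF2 targets (4052). In Acinar22 the transferases were as high, at 14185 CPM, of which Gsto1 made up 8485, but the peroxiredoxins stood at 1381 CPM. Without these 2 cells and Acinar55, rho between transferases and NRF2 targets was 0.48.

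In 5 epithelial cells (Acinar16, Acinar81, Acinar156, Acinar162 and Acinar173) ribosomal protein genes held under 4% of UMIs (1.85 to 3.12%, against 4.46 to 13.5% in the other 150), a limit set after seeing the data. The transferase sum was 547 to 967 CPM in them, against 841 to 14338, and the peroxiredoxin sum 477 to 971, against 1229 to 3977. The peroxiredoxin ranges did not overlap, but neither did those of other roles. Gss with Txn1 held 257 to 400 against 419 to 2547 CPM, and the glutathione peroxidases 322 to 836 against 1214 to 3696. The dismutases with catalase held 254 to 348 against 523 to 1816. The share of all genes with such ranges was not computed. The NRF2 targets were less different, at 420 to 1045 CPM with a median of 522.

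Of the members, 24 were at least 2-fold lower in these cells and 2 higher, where 24.3% of all genes were lower and 23.3% higher. With each of the 5 cells left out in turn, 22 to 25 were lower and 1 to 2 higher. Gpx2 had a ratio of 0.036, Prdx6 0.12, Mgst1 0.11 (0.061 without Acinar16) and Gsta4 0.14 (0.089 without Acinar81). The 2 members counted as higher each rested on 1 cell. Pooled, Hmox1 was 3.11-fold higher, but 25 of its 28 UMIs lay in Acinar81, without which its ratio was 0.42. Slc7a11 was 2.24-fold higher, but 52 of its 59 UMIs lay in Acinar162, without which its ratio was 0.38. Both directions thus turned when that cell was left out. Nfe2l2 (1.05), Txnrd1 (0.94) and Prdx5 (1.05) lay near 1. The same cells held more mitochondrial UMIs (2.26 to 4.36%, against at most 1.74%) and more of the nuclear RNA Malat1 (medians of 2030 and 313 CPM), values that move with RNA quality, whose part was not tested. Without them, rho between transferases and peroxiredoxins was 0.37, and between transferases and NRF2 targets 0.52.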

How the data were processed

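RNA of single cells of 1 group was measured with Smart-seq3. The authors deposited raw UMI counts and raw read counts for 32100 Ensembl genes, with no normalization. Per the submitters' processing notes, tools included featureCounts and STAR (versions not listed), with mm10 and GRCm38 as builds. The collapsing of UMIs and the choice of reads are not given in the sources used here. Symbols and positions are those of GENCODE on GRCm38, and promoter windows those of RefSeq (GRCm38.p6).

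Levels are CPM of UMIs, with exact Poisson intervals, and ratios have exact conditional intervals. Fibroblast-rich cells held at least 1000 CPM of the fibroblast list, and cells rich in acinar enzymes at least 10000 CPM of the enzyme list. Variation is the depth-weighted squared coefficient of variation beyond Poisson noise. Co-variation is Spearman's rho over epithelial cells with at least 40000 UMIs, with no p-value. Cells form 1 group, so no test was made. Folds were computed for genes with at least 10 CPM, and scripts were tested on simulated data.

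The members and lists were chosen with earlier results of these data known. Named genes are the 35 members, the 10 most abundant other pathway genes, the 5 genes outside the lists most like each of 3 group sums, and the 3 highest and 3 lowest member pairs. Genes or cells named beyond this rule (Acinar cells, the Mgst1 and Gpx2 pairs, the followers of the group sums) were picked with their values in view, and so were the rho of 0.3, the 4% ribosomal limit and the settings without abundant genes or single cells. Alternatives were read counts, thinning to 40000 UMIs, other cell filters, totals and folds, title numbers up to 96 or above, and blocks of 24 title numbers. No doublet caller was run, since each sample is 1 cell per the labels, and no 2 cells had identical counts. Scripts used scipy 1.17.1, numpy 2.4.6, pandas 2.3.3 and matplotlib 3.10.9 under Python 3.11.15.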

Additional observations from a re-analysis of the deposited data

How the results depend on the processing

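Levels moved with the processing by little, and by more than counting error. The transferases, NRF2 targets and peroxiredoxins held 4035, 798 and 2919 CPM in read counts, and 3770, 810 and 2711 with equal weight per cell. Without fibroblast-rich cells they held 3770, 835 and 2758, and with mitochondrial and ribosomal protein genes left out of the total 4122, 927 and 3075. Cells with titles up to 96 gave 3509, 805 and 2675, and the others 3872, 848 and 2808. Without the cells rich in acinar enzymes the transferases held 3546 CPM. The rank correlation of transferases with NRF2 targets was 0.39 in titles up to 96 and 0.25 without the 2 most abundant genes of each sum. The rank correlation of transferases with peroxiredoxins was 0.33 after thinning and -0.023 without those genes. The rank correlation of NRF2 targets with peroxiredoxins was 0.25 in titles from 97 and -0.11 without those genes. The cause of these moves was not tested. The spread of the NRF2 targets was 53.9% after thinning. At 1.5-fold, 5 members were higher and 21 lower in fibroblast-rich cells, and with each of the 6 cells left out in turn 2 to 3 were higher and 15 to 16 lower. In the cells with little ribosomal protein RNA, leaving out each cell gave 1 to 2 members higher and 22 to 25 lower. Of the recomputed values of the main results, 74 kept within the tolerance, 26 moved beyond it and 2 changed sign. Of those recomputed for single genes and pairs, 218 kept within it and 14 moved. No paired analysis was possible because the cells form 1 group.

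Depth limits the rare members: at 40000 UMIs Nqo1, Hmox1, Cat, Slc7a11, Gstm2 and Gstm5 are near the level of 1 UMI, and rank correlations for them are held down by counting noise. All cells share their source, so the values do not extend to other cultures.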
